A study of Mus musculus with 3 samples.

Results

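Synaptic vesicle and exocytosis genes were examined for Ago2 binding in N2A cells, a mouse neuroblastoma line. The members were the protein-coding genes of the GENCODE M21 annotation whose symbols start with Syt, Stx, Vamp, Stxbp, Cplx, Rims, Rab3, Sv2, Syngr or Syp, without Sytl, together with Snap25, Snap23, Syn1, Syn2 and Syn3. This rule found 89 genes of the 21028 that have an annotated 3′UTR. It used symbols only and no measured value. The letters Rab3 also took in 16 genes that share only those letters with the Rab3 GTPases, namely the Rab30 to Rab39 group and 4 partners of Rab3, and 73 members were left without them.

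HITS‐clip joins a protein to the RNA it touches by ultraviolet light, isolates the protein with an antibody, here the anti-Ago2 clone 2D4, and sequences the attached RNA. There were 3 libraries, all of N2A cells under basal conditions in serum-containing medium, and they formed a single group with replicates numbered 1 to 3. The cells of each were irradiated once at 400 and 2 times at 200 mJ/cm2. No treatment, knockdown or control immunoprecipitation was among the samples analysed here, and all of the material was 1 cell line, so the values describe the spread between libraries of that line and not a comparison of conditions.

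Neurotransmitter is released when a vesicle fuses with the plasma membrane. A vesicle SNARE (a VAMP) zips together with target SNAREs (a syntaxin and SNAP-25), while complexins and other proteins regulate the assembled complex and synaptotagmins sense the calcium that starts fusion. Rab3 and RIM proteins bring vesicles to the active zone, synapsins tether them in a reserve pool, and SV2, synaptogyrin and synaptophysin are proteins of the vesicle membrane itself. Many syntaxins, VAMPs and Rabs serve other membrane traffic in every cell, from endosomes to the Golgi. Ago2 carries a miRNA, whose bases 2 to 8, the seed, pair mostly with 3′UTRs and lower translation or stability of the mRNA.

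The deposited table listed 711377, 498071 and 829936 peaks in replicates 1, 2 and 3. Read depth was not given in the sources used here, and whether the number of peaks follows it was not tested. Replicate 1 stood apart from the others: 34.8% of all genes had a 3′UTR peak on their own strand in it, against 44.7% and 48.4% in replicates 2 and 3. Of the listed neuronal and neuroblastoma markers 10 of 20 (50%) had a 3′UTR peak in every library, beside 23.9% of all genes, among them Map2, Elavl3, Elavl4 and Hand2, while Nefl and Th had no such peak in any library. Of the other lists, 0 of 4 erythroid and 0 of 3 hepatocyte genes had a 3′UTR peak in every library, as against 1 of 7 myeloid and lymphoid genes (Ptprc) and 3 of 6 oligodendrocyte and astrocyte genes (50%), Mbp and Slc1a2 among them, so that these shares do not set the neuronal list apart.

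A 3′UTR peak, that is a peak on the gene's strand overlapping the longest annotated 3′UTR by at least 1 nt, was present in 50, 60 and 58 of the 89 members in replicates 1, 2 and 3. This was 62.9% ± 5.93 of the members (SD, n = 3 libraries) beside 42.6% ± 7.03 of all genes. In all 3 libraries it was present in 36 members, or 40.4%, where the share of all genes was 23.9%. The share is not corrected for 3′UTR length, and the members had long 3′UTRs, with a median of 2171 nt against 960.5 nt. Had each member carried the share of all genes in its own class of 3′UTR length, 31.5 members or 35.4% would have been counted. The greater part of the gap to all genes was therefore matched by 3′UTR length. Without replicate 1 the count was 50 members, or 56.2%, beside 36.6% of all genes. The peaks came from whole cultures, so that fewer cells holding a transcript and less of it per cell cannot be told apart, and the level of each mRNA was not measured in these libraries.

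In 5 classes with about equal numbers of genes, the share of all genes rose with each step in 3′UTR length. That of the members rose with length above 686 nt. None of the 5 members with a 3′UTR of up to 282 nt and none of the 7 members between 283 and 686 nt had a peak in all libraries. From 687 to 1304 nt there were 3 of 15 members (20%) beside 20.9% of all genes, and from 1305 to 2385 nt 9 of 24 (37.5%) beside 33.8%. The members stood furthest from all genes in the longest class, at 24 of 38 (63.2%) beside 51%. These shares have no interval over samples, as each is a count of genes over the same libraries.

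**Figure D1:**
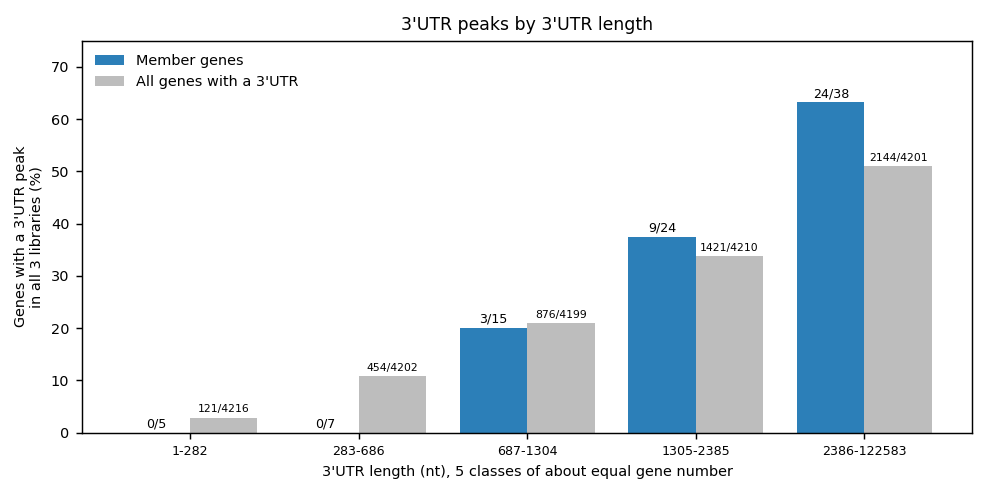
Share of genes with a 3′UTR peak in each of the 3 libraries (y axis, %) in 5 classes of 3′UTR length (x axis, nt), for the 89 members (blue) and for all genes with a 3′UTR (grey), with the numbers of genes over each bar. The members rise from 0% in the shortest class to 63.2% in the longest, below all genes up to 1304 nt and above them in longer 3′UTRs.

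On the opposite strand, which carries no transcript of the member, 4 members had a 3′UTR peak in every library, or 4.49%, beside 2.63% of all genes and 4.46% at the shares of their length classes. Rab30, Rab39 and Stx18 were among these. Peaks on the members' own strand numbered 130, 394 and 462 and those on the opposite strand 40, 17 and 36, giving ratios of 3.25, 23.2 and 12.8 in replicates 1, 2 and 3 (13.1 ± 9.98, n = 3). Over all genes the ratio was 3.52, 13.8 and 10.5 (9.27 ± 5.25). In both, the peaks of replicate 1 were the least bound to strand. The ratio also differed between classes of peak width. Among the narrowest peaks, of up to 85 nt, the members' ratio was 2.67, 5.18 and 3.11, while among peaks of 86 to 200 nt it was 6.67, 324 and 61.3, the value of replicate 2 resting on a single opposite-strand peak. Peaks over 200 nt were few, with 6, 13 and 7 on the members' own strand and 7, 5 and 2 on the opposite one.

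A common region was defined as a stretch of at least 8 nt that peaks of all 3 libraries covered on the same strand. Common regions lay in the 3′UTRs of 21 members, or 23.6%, beside 14.3% of all genes, and at the shares of their length classes 21.1% of the members would have had one. They numbered 43, had a median length of 66 nt (8 to 111 nt) and added up to 2738 nt, which was 1.29% of the members' 3′UTR bases against 1.76% over all genes. Replicate 1 set this number. Without it 40 members had a common region and there were 174 regions, without replicate 2 there were 69 and without replicate 3 there were 58. Within the regions 63.8% of the bases were A or T, against 55.2% in the remainder of these 3′UTRs, as over all genes (64.2% against 57.5%). None of the 43 regions touched an exon of another annotated gene, and 6 were mostly in repeat-masked sequence. These 6 lay in Syt1, Syt11, Syn2, Sypl and Snap25.

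The 17 synaptotagmins, grouped here as calcium sensors although not all bind calcium, held 13 of the 43 regions. This was more than any other role, and Syt1 alone held 9. A 3′UTR peak in every library was present in 7 of the 17 and a common region in 4, beside 23.9% and 14.3% of all genes. Syt1, the calcium sensor of fast synchronous release, had 14, 20 and 27 peaks on its 3′UTR of 2890 nt in replicates 1, 2 and 3 (20.3 ± 6.51). These peaks covered 36.4%, 62% and 75.6% of it. All libraries were thus high, replicate 1 least so. Its 9 common regions summed to 580 nt, more than in any other member, and 6 of them lay close after the stop codon, within chr10:108499990-108500479 on the minus strand (mm10). Syt11, a synaptotagmin that does not bind calcium, had 3, 22 and 15 peaks and 107 nt in 2 common regions close to the end of its 3′UTR. Syt4, another synaptotagmin of dense-core vesicles, had 6, 11 and 21 peaks and 1 common region of 72 nt. Syt14 had 4, 14 and 19 peaks and 1 region of 29 nt. Peaks in all libraries, with no common region, were found on Syt6, Syt7 and Syt16. Syt2, the fast sensor of hindbrain and neuromuscular synapses, had 2 peaks in replicate 1 and none in the others, and Syt3, Syt8, Syt10 and Syt12 had none in any library.

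Among the target SNAREs 9 of 17 members had a 3′UTR peak in every library, and 4 (Stx12, Stx16, Stx7 and Snap25) had common regions, beside 23.9% and 14.3% of all genes. Stx12, a syntaxin of recycling endosomes, had 4, 12 and 12 peaks, which covered 18.8%, 70.1% and 70.8% of its 1965 nt, and 5 common regions of 346 nt in all. Stx16, which acts at the trans-Golgi network, had 4, 12 and 16 peaks and 204 nt in 2 regions. Stx7, a late endosomal syntaxin, had 1, 11 and 11 peaks and 1 region of 99 nt. Snap25, the SNARE of synaptic release on the plasma membrane, had 2, 7 and 13 peaks, covering 12.7%, 50.7% and 81.7% of its 3′UTR of 1285 nt. Its 1 common region, of 34 nt at chr2:136781428-136781461, was 64.7% repeat-masked sequence. Replicates 2 and 3 were high for each of these and replicate 1 was low. Snap23, the form of SNAP-25 found in most tissues, had 3, 6 and 5 peaks and no common region.

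Stx1a, a neuronal syntaxin that partners SNAP-25 and VAMP2 in transmitter release, had no 3′UTR peak in any library. A gene without a listed peak is not shown to be unbound, since the table lists only what passed the peak caller. Of the vesicle SNAREs, Vamp2, the one of synaptic vesicles, had 1, 11 and 9 peaks over 4.6%, 50.9% and 49.7% of its 3′UTR, and Vamp3, its counterpart in recycling endosomes, had 3, 4 and 11 peaks over 16.8%, 26.8% and 64.1%. Each had 1 common region, of 71 nt in Vamp2 (chr11:69091358-69091428, plus strand) and 99 nt in Vamp3 (chr4:151048459-151048557, minus strand). The shares covered of Vamp2 and Vamp3 overlapped between libraries. Vamp1, Vamp5 and Vamp9 had no 3′UTR peak in any library.

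**Figure D2:**
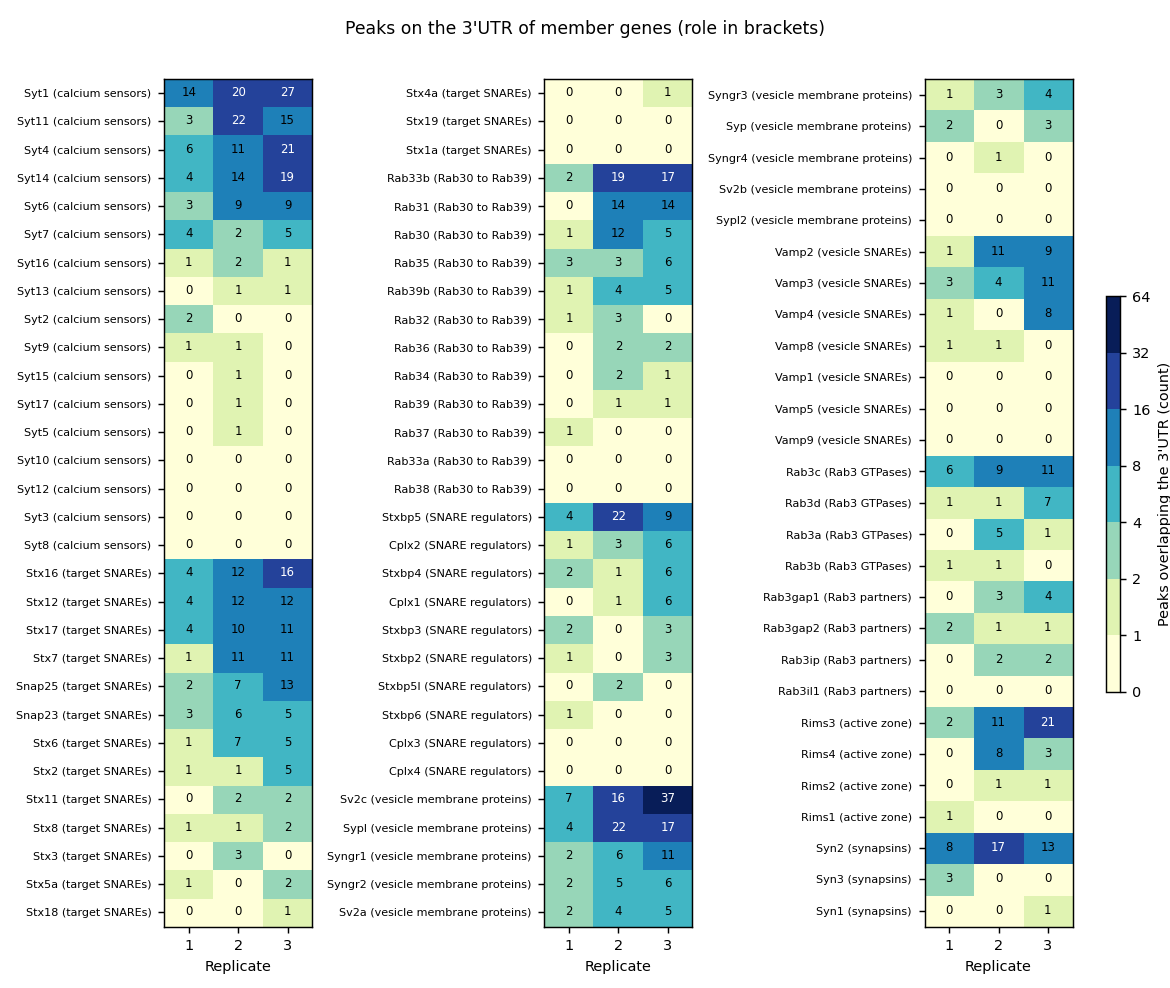
Number of peaks overlapping the 3′UTR (numbers and colour, counts) of the members reported by name (rows, with the role of each in brackets) in replicates 1, 2 and 3 (columns). Summed over the libraries, Syt1 and Sv2c carry the most peaks, 14, 20 and 27 and 7, 16 and 37, and many rows are at 0 in replicate 1 and filled in replicates 2 and 3.

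Of the SNARE regulators 3 of 11 had a 3′UTR peak in every library, namely Cplx2, Stxbp4 and Stxbp5, near the 23.9% of all genes. Stxbp5 (tomosyn), an inhibitor of SNARE assembly, had 4, 22 and 9 peaks and 86 nt in 2 common regions. The complexins, which clamp and promote fusion, had fewer peaks. Cplx1 had 0, 1 and 6 peaks and Cplx2 1, 3 and 6, the peak of Cplx2 in replicate 1 being 1044 nt wide. Cplx3 and Cplx4, complexins of retinal ribbon synapses, had none.

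At the active zone Rims3 had 2, 11 and 21 peaks over 2.54%, 19% and 38.9% of 5072 nt and 1 common region of 91 nt. Rims1, the scaffold that docks vesicles at the release site, had 1, 0 and 0 peaks. Rims2 had 0, 1 and 1 and Rims4 0, 8 and 3 peaks. Of the Rab3 GTPases, Rab3c had 6, 9 and 11 peaks on a 3′UTR of 7628 nt and Rab3d 1, 1 and 7. Rab3a, the most abundant Rab3 of brain, had 0, 5 and 1, and Rab3b 1, 1 and 0. None of the Rab3 GTPases or of their 4 partners had a common region in the 3′UTR. Among the Rab30 to Rab39 genes, 4 of 12 had a 3′UTR peak in every library, beside 23.9% of all genes. Rab35, a regulator of endocytic recycling, had 3, 3 and 6 peaks with 1 common region of 53 nt, and Rab33b, a Golgi Rab, had 2, 19 and 17 with 1 of 46 nt.

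Of the vesicle membrane proteins 5 of 10 members had a common region, where the share of all genes was 14.3%, and they held 7 of the 43 regions. Sv2c, a form of the SV2 glycoprotein, had 7, 16 and 37 peaks over 8.96%, 26.5% and 51.1% of 6686 nt and 122 nt in 2 common regions. Sv2a, the most widespread form, had 2, 4 and 5 peaks over 10.5%, 25.9% and 32.6% of 1605 nt and 1 region of 84 nt, so that per length Sv2a and Sv2c were close in replicates 1 and 2. Sv2b had no peak in any library. Sypl, a relative of synaptophysin in other tissues, had 4, 22 and 17 peaks and 147 nt in 2 regions, while synaptophysin itself (Syp) had 2, 0 and 3 peaks. Syngr2 and Syngr3, of the synaptogyrins, had 1 region each, of 82 and 83 nt.

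The synapsins, which tether vesicles to each other and to actin, differed among themselves. Syn2 had 8, 17 and 13 peaks, which covered 29.1%, 75% and 53.3% of 2235 nt, and 249 nt in 6 common regions. Syn1 had 0, 0 and 1 and Syn3 3, 0 and 0 peaks. The lowest library of Syn2 lay above the highest of Syn1 and Syn3, both by number of peaks and by share covered.

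**Figure D3:**
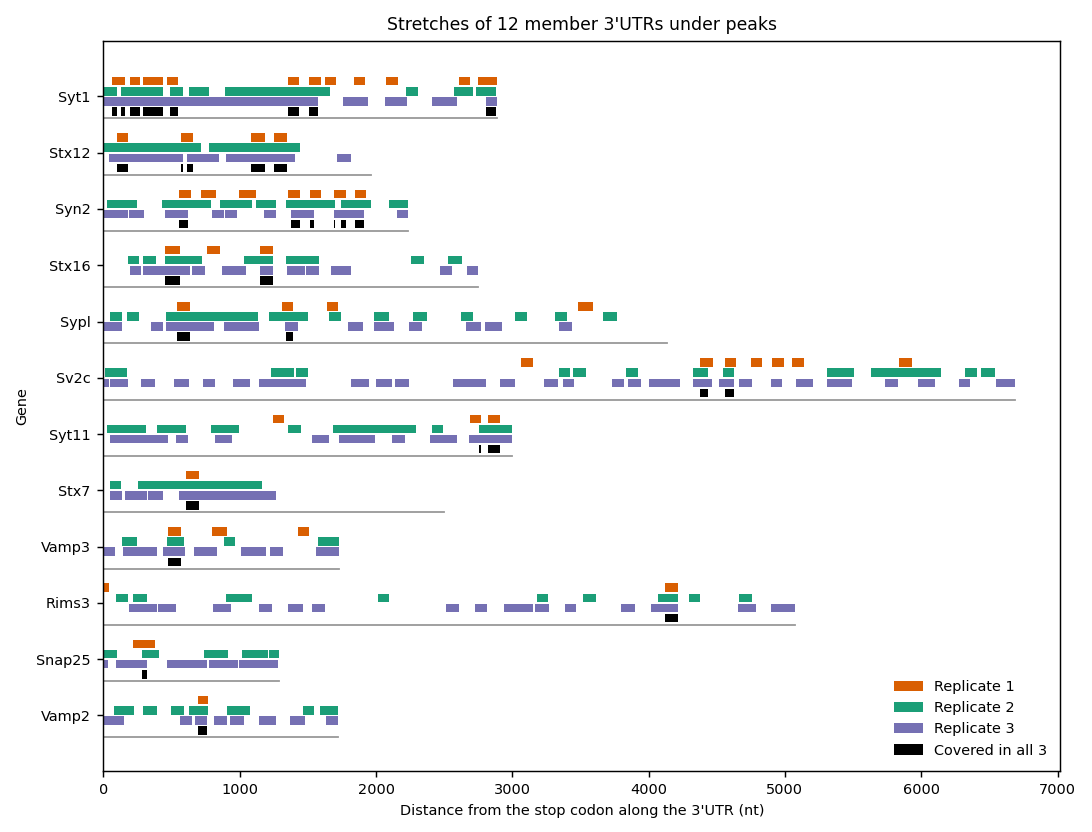
Stretches under peaks in replicate 1 (orange), replicate 2 (green) and replicate 3 (violet) and under peaks of all 3 (black), along the 3′UTRs of 12 members (y axis), by distance from the stop codon (x axis, nt); the grey line is the annotated length. Peaks of replicate 1 are few and set where the black stretches can lie, such as the 9 in Syt1 and the 6 in Syn2, while replicates 2 and 3 cover most of Syt1, Stx12 and Snap25.

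The 53 members without a 3′UTR peak in every library fell into a few patterns. A peak in replicates 2 and 3 only was found for 14 members, or 15.7%, beside 12.8% of all genes. Besides Cplx1, Rab3a, Rims2 and Rims4 these included Rab31, with 0, 14 and 14 peaks. Peaks in replicates 1 and 3 only were found for 5 members (Stx5a, Stxbp2, Stxbp3, Syp and Vamp4), or 5.62% beside 3.3% of all genes, and in replicates 1 and 2 only for 4 (Rab32, Rab3b, Syt9 and Vamp8), or 4.49% beside 2.23%. A single library had a peak for 14 members, with 5.62%, 6.74% and 3.37% of the members in replicates 1, 2 and 3 alone beside 5.44%, 5.82% and 8.47% of all genes. No 3′UTR peak in any library was listed for 16 members, or 18%, against 38.1% of all genes and 25.6% at the shares of their length classes. A few 3′UTRs owed their coverage to very wide peaks, such as Syt9, covered over 100% in replicates 1 and 2 by 1 peak each, and Syt13, covered over 100% in replicate 2.

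Of 38 listed miRNA families, 36 had a mature sequence in RefSeq, and their sites were searched in the members' 3′UTRs as 7mers, the reverse complement of the seed, or as 8mers, the 7mer followed by A. For miR-124-3p and miR-485-5p no sites were searched. The members held 762 such sites. Of these, 70, 167 and 172 lay wholly under a peak in replicates 1, 2 and 3, or 9.19%, 21.9% and 22.6%, where peaks covered 8.19%, 19.3% and 19.9% of all bases of these 3′UTRs. Listed sites were thus covered little more often than any base. In common regions there were 16 sites, or 2.1%, beside 2.13% of the sites of all genes. Without replicate 1 the count was 78, without replicate 3 it was 33 and without replicate 2 it was 21.

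The 16 sites lay in 8 members. In Stx12 there were 3 (miR-200b-3p, miR-30a-5p and miR-23a-3p), in Sypl 3 (miR-19a-3p, miR-130a-3p and miR-7a-5p), in Syt1 4 (miR-19a-3p, miR-137-3p, miR-148a-3p and miR-34a-5p) and in Stx16 2 (miR-30a-5p and miR-29a-3p). Rab35 (miR-128-3p), Rims3 (miR-27a-3p), Stx7 (miR-132-3p) and Sv2c (miR-130a-3p) had 1 each. The region around the Sypl site of miR-7a-5p was 75% repeat-masked sequence. For 11 of the 13 miRNAs with a site in a common region every library also had a peak on a hairpin listed in RefSeq, and for miR-27a-3p and miR-128-3p none had. Of all 36 miRNAs searched, 19 had such a peak in every library. The sites of Syt1 are shown as it had the most common regions, those of Stx12 and Sv2c as the other 8mers, and that of Sypl as an overlap of 2 miRNAs; the Syt1 site of miR-148a-3p overlaps that of miR-34a-5p and falls within its window. Each is read 5′ to 3′ on the strand of the mRNA from the GRCm38 genome, with the match to the seed, and the A of an 8mer, in capitals.
Syt1, miR-19a-3p 8mer at chr10:108500392-108500399, minus strand: agatcctgttttaaTTTGCACAaatttaa
Syt1, miR-137-3p 7mer at chr10:108500318-108500324, minus strand: ctactcttcttttaAGCAATAtgatgtgt
Syt1, miR-34a-5p 7mer at chr10:108498971-108498977, minus strand: attccctcgtactgCACTGCCcaatgtgt
Stx12, miR-30a-5p 8mer at chr4:132854815-132854822, minus strand: ttattgtctgctggTGTTTACAgagtcca
Sv2c, miR-130a-3p 8mer at chr13:95956681-95956688, minus strand: gtctcaacaggaaaTTGCACTAagatatt
Sypl, miR-19a-3p 7mer at chr12:32976341-32976347, plus strand: tgtgtagaggtaacTTTGCACttgtgctg

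The mature miRNAs that these sites match, with bases 2 to 8 in capitals, are as follows.
miR-19a-3p: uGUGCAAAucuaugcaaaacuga
miR-130a-3p: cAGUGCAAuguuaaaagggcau
miR-148a-3p: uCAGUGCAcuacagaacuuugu
miR-34a-5p: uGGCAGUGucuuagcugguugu
miR-137-3p: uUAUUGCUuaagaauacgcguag
miR-30a-5p: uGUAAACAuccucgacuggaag
In Sypl the sites of miR-19a-3p and miR-130a-3p overlapped, starting 617 and 618 nt after the stop codon, as did those of miR-148a-3p and miR-34a-5p in Syt1, so that a peak cannot tell these miRNAs apart there. The Syt1 sites for miR-19a-3p and miR-137-3p stood 141 and 216 nt after the stop codon and those for miR-148a-3p and miR-34a-5p 1561 and 1563 nt after it. In Stx12 the sites lay 168, 644 and 1307 nt after it. A match to a seed is a description of the sequence, and which miRNA Ago2 carried there was not measured.

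The study turned to N2A cells to look for targets of miR-21a-5p. The members held 8 sites for it (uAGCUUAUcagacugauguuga), among others in Rab39, Rab3c, Stx11, Syn2, Sypl, Syt9 and Vamp4, and 0 of the 8 lay in a common region, beside 3.4% of such sites over all genes. Under a peak were 2, 3 and 3 of the 8 in replicates 1, 2 and 3 (25%, 37.5% and 37.5%), where peaks covered 8.19%, 19.3% and 19.9% of the bases. Those of Rab3c, Stx11 and Sypl were under no peak, and those of Rab39 and Vamp4 under a peak in replicate 3 only. The Syn2 site was under a peak in replicates 1 and 2, next to a common region of 60 nt that began 558 nt after the stop codon. The Syt9 site, an 8mer, was covered in replicates 1 and 2 by the very wide peaks named above. The Syn2 site is shown as the one covered in replicate 1 by a peak of ordinary width, with the match in capitals.
Syn2, 621 nt after the stop codon at chr6:115274945-115274951, plus strand: tcgagtgtgtgtgaATAAGCTggctgtgc

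Outside the 3′UTR, a peak on the coding sequence was present in all libraries in 30 members, or 33.7%, beside 28.1% of all genes and 33.6% at the shares of the members' length classes. Without replicate 1 there were 46. A common region in the coding sequence was found in 6 members, or 6.74%, beside 10.3% of all genes and 12.9% at the shares of the members' length classes. Stxbp5 had 112 nt in 2 such regions, Sypl 104 nt, Rab35 71 nt, Stx12 58 nt and Syt14 29 nt. Sypl, Rab35, Stx12, Stxbp5 and Syt14 thus had common regions in both coding sequence and 3′UTR. The coding region of Syt14 lay under peaks of 660, 106 and 4232 nt, and 1 of those of Stxbp5 under a peak of 1083 nt in replicate 3. In the 5′UTR 1 of 88 members had a peak in all libraries (Rab3ip, 1.14%), beside 2.78% of all genes, a count too small to set against it. It was 10, 6 and 2 without replicates 1, 2 and 3 in turn.

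Assigned by their midpoint, 6.05%, 29% and 17.2% of the peaks within members fell in a 3′UTR in replicates 1, 2 and 3, with Wilson 95% intervals of 5.12% to 7.15%, 26.7% to 31.4% and 15.9% to 18.7% that cover counting error only. The mean was 17.4% ± 11.5 (n = 3) beside 15.2% ± 8.98 over all genes, a difference within the spread between libraries. Coding sequence took 2.35%, 7.6% and 5.27% of the members' peaks (5.07% ± 2.63) and 5.33%, 15% and 9.6% of those of all genes (9.97% ± 4.84), and was lower in the members in every library. It also made up 1.63% of the length of the members against 3.3% of all genes. Introns took 89.5%, 61.4% and 74.7% of the members' peaks (75.2% ± 14) and 83.8%, 56.1% and 72.6% of those of all genes (70.8% ± 13.9), higher in the members in each library, and made up 93.1% of the members' length against 90.9%.

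**Figure D4:**
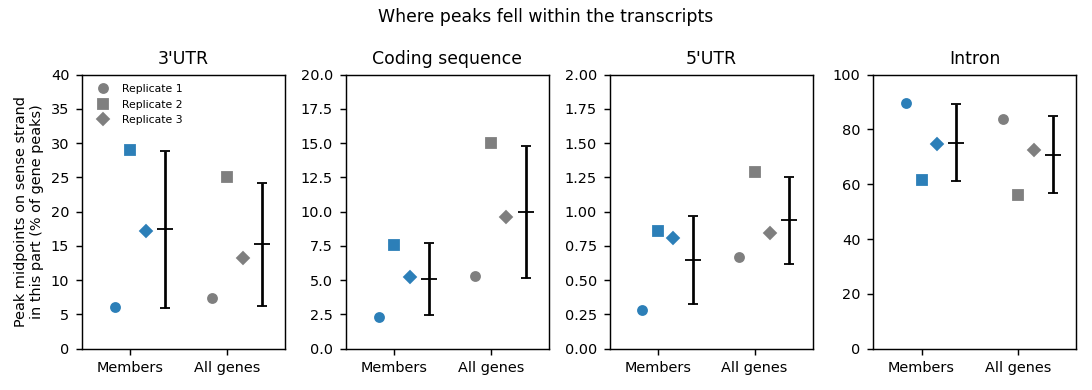
Share of peaks by transcript part (y axis of each panel, % of the peaks whose midpoint lies within the genes on their strand; the 4 scales differ) for members (blue) and all genes (grey) in replicate 1 (circle), replicate 2 (square) and replicate 3 (diamond), with mean and SD in black. The order of the libraries is the same for members and all genes in the 3′UTR, the coding sequence and the introns, replicate 1 having the lowest 3′UTR and coding shares, and the coding share of the members is the lower in each library.

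An intron peak was present in all libraries in 66 members, or 74.2%, beside 60.4% of genes with introns and 67.8% at the shares of the members' classes of 3′UTR length. The members had long introns, with a median of 29282 nt per gene against 15678 nt, and per 100 kb of intron all members together had 30.4, 14.4 and 33.7 peaks beside 22.1, 15 and 35.5 over all genes. This pooled rate was above that of all genes in replicate 1 and slightly below it in the others. The median per gene was 19, 13.7 and 24.2 peaks per 100 kb in the members beside 15.5, 10.2 and 17.4 in genes with introns, higher in the members in each library. Summed over libraries, the most intron peaks were in Syt1 (326, 91 and 230), Rims2 (258, 48 and 242) and Syn2 (200, 60 and 94), and here replicate 1 was high. These counts are not corrected for intron length, which was 504995, 475723 and 140074 nt. Per 100 kb of intron Syt1 had 64.6, 18 and 45.5 peaks, below the 169, 149 and 272 of Stx16. Common regions lay in the introns of 21 members, or 23.6%, beside 15.4% of genes with introns and 19.7% at those shares.

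Of the 35 common regions in introns, 16 rested on at least 1 peak over 200 nt. The longest, of 4950 nt in Syt2, lay under peaks of 6044, 8540 and 4950 nt, while the 3′UTR of this gene had peaks in replicate 1 only. The 3 regions of Stxbp4 (242 nt) each lay under a narrow peak of replicate 1 and a very wide one of replicates 2 and 3. Stx16 and Stx7 followed with 144 and 143 nt. Syt1 had 5 intron regions of 295 nt in all, none of them under a wide peak. A region of 43 nt in Rab3gap2, a subunit of the complex that switches Rab3 off, overlapped Mir664 and Snora36b, a miRNA and a snoRNA gene on the same strand, at chr1:185242982-185243024.

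Peaks appeared to be padded by 30 nt at each end. In 8 intron regions each library had 1 peak of up to 200 nt, and without that padding these peaks still shared 19 to 24 nt. In 2 of them (Rab3gap2 and Stx18) the peaks of all libraries had equal ends. The sequences of the 5 parts whose peaks ended within 2 nt of each other are shown, as none overlapped an exon of another annotated gene and each occurred 1 time in the primary chromosomes on either strand. Their peaks were all of the narrowest class, of up to 85 nt. On the members' 3′UTRs this class was less bound to strand than peaks of 86 to 200 nt. The sequences read 5′ to 3′ on the strand of the gene, in mm10. Capitals in Rims2 mark a run of 13 bases that is also in miR-30e-3p, the longest run that any of the 8 parts shared with a mature miRNA in RefSeq.
Rims2, chr15:39396985-39397008, plus strand: atttcttcCGGATGTTTACAGttg
Stx18, chr5:38074869-38074892, plus strand: taatctcctgcatgtctctgtttt
Rab3gap2, chr1:185217448-185217468, plus strand: ccggatcacctcagaagttgc
Syt9, chr7:107465490-107465513, plus strand: cagaatcctcatcgattgggaaga
Rab3c, chr13:110155731-110155753, minus strand: agctttgctatggctaacagcaa

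Other genes of exocytosis, listed without regard to how they behaved here but with earlier results of these data known, gave a lower share than the members. A 3′UTR peak in every library was present in 18 of 65 (27.7%), near the 23.9% of all genes, at a median 3′UTR length of 1612 nt. Unc13a, which primes vesicles, Napb, an adaptor that helps take spent SNARE complexes apart, and Exoc1, Exoc2, Exoc3 and Exoc5 of the exocyst, which tethers vesicles to the membrane, were among them. Common regions lay in 6 of these genes, or 9.23%, below the 14.3% of all genes. They summed to 271 nt in Dnajc5, a chaperone of synaptic vesicles, 232 nt in Synj1, which uncoats endocytosed vesicles, 197 nt in Gosr1, 138 nt in Exoc5, 87 nt in Sec22b and 30 nt in Exoc2. No 3′UTR peak in any library was listed for 14 of the 65, where the share of all genes was 38.1%. Among these 14 were Sncb and Sncg, and Amph, an adaptor of endocytosis.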

How the data were processed

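Ago2 HITS‐clip peaks of 3 N2A libraries were analysed. The authors called peaks per sample and deposited 1 table of positions with a score per peak, which was 60 for 99.3% of peaks and was not used. The submitters' processing notes name mm10, FastQC, cutadapt and STAR; the peak caller is not given in the sources used here. Starts were read as counted from 0, and peaks were used as deposited. Genes were those of GENCODE M21 on 21 chromosomes, and sequences came from GRCm38.p6, in which 1005 of 1005 RefSeq hairpins matched. The 3′UTR was the longest of any protein-coding transcript, without the stop codon. Midpoints were assigned to 3′UTR, coding sequence, 5′UTR, non-coding exon and intron in that order.

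Members and lists were chosen with earlier results of these data known, and the libraries form 1 group, so values are described without tests. Whether replicates were separate cultures is not stated, so their spread may be technical. Named were 13 genes of fast release, the 10 members with most bases in 3′UTR common regions, the first of each role, the first 5 for introns and for coding sequence, and members with a site in a common region; others were named after their values were seen. A few genes are counted but not reported here by name. Counts were checked on simulated peaks. Python 3.11.15, pandas 2.3.3 and pysam 0.24.0 were used. Alternatives were peak width, trimming, equal peak numbers, fewer libraries, each library left out, merged 3′UTR exons, longer common regions, midpoints, 8mers only and members without the letter-only Rab genes.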

Additional observations from a re-analysis of the deposited data

How the results depend on the processing

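Of 82 values recomputed under other settings, 48 stayed within the limits set for a like value and 34 moved. With peaks of 86 to 200 nt only, members with a 3′UTR peak in every library numbered 23, those with a 3′UTR common region 10, with 17 regions and 9 seed sites in them, coding peaks in all libraries 14, intron peaks 42, 5′UTR peaks 0, and the strand ratio was 131. A random draw of equal peak numbers left 10 members with a common region, 21 regions, 7 sites and 0 members with a 5′UTR peak, and trimming by 30 nt left 12, 17, 4 and 0. Asking for at least 2 libraries gave 59 members with 3′UTR peaks, 59 with coding peaks, 16 with 5′UTR peaks and 43 with a common region, with 212 regions and 100 sites. The 5′UTR count was 0 by midpoint and without the letter-only Rab genes, and 3 sites were 8mers. With each library left out in turn, members with a common region ranged from 25 to 40, regions from 58 to 174, coding peaks from 36 to 46, 5′UTR peaks from 2 to 10 and sites from 21 to 78. The cause of these shifts was not tested. The share of members with a 3′UTR peak stayed above that of all genes in each setting run on both: 25.8% beside 16.9% with peaks of 86 to 200 nt, 32.6% beside 19.3% in the random draw and 66.3% beside 42.1% with at least 2 libraries. None of these shares was corrected for 3′UTR length. In the main setting, the shares of the length classes gave 35.4% beside the 40.4% counted.

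Leaving out replicate 1 raised the counts over 3′UTRs, coding sequence and 5′UTRs most, while members with an intron peak numbered 72, 73 and 68 without replicates 1, 2 and 3. Read depth is unknown. No paired analysis was possible because all samples belong to 1 group.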
